A study of Mus musculus with 11 samples.

Results

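The genes described here are 36 members of the hypoxia response and of glycolysis, out of 24421 genes counted in the series. They were chosen by symbol: the 4 subunits of hypoxia-inducible factor (HIF), 5 oxygen sensors and inhibitors of HIF, 8 known HIF targets, and 19 genes of glucose uptake and glycolysis. All 36 symbols were present in all 11 count files. The group was put together because the Hif1a transcript was known to be higher in mutant cells, so the difference in Hif1a and the counts of members called are given as a description of these animals and support nothing further. The question asked of the other members is whether they followed the Hif1a transcript.

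The cells are J-RGCs, retinal ganglion cells (RGCs) of a type that senses the direction of motion. A transgenic line specific to them made them fluoresce green, and they were sorted at postnatal day 4 to 5. The Tbr1 KO group held 6 libraries from 4 animals labelled as knockouts of the T-box transcription factor gene Tbr1, here called Tbr1 KO animals a to d. Libraries 1 and 2 came from animal a, 3 and 4 from b, 5 from c and 6 from d. The WT group held 5 libraries from 4 control animals, WT animals a to d. Library 1 came from animal a, 2 and 3 from b, 4 from c and 5 from d. All animals were on a mixed C57BL/6 and CD1 background, and each library came from a pool of 100 cells. The labels name neither the Tbr1 allele nor the reporter line, and the sex of the animals is not given in them.

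HIF is a transcription factor made of an oxygen-regulated alpha subunit and a constitutive ARNT subunit. When oxygen is plentiful, prolyl hydroxylases mark the alpha subunit, the VHL protein recognises the mark and the alpha subunit is degraded, so HIF activity is set largely at the level of protein stability and transcript levels do not measure it. When oxygen falls, HIF is known to bind short DNA elements and to raise genes of glucose uptake, glycolysis, lactate export, mitophagy and vessel growth. The retina is known for its high rate of glycolysis, and its blood vessels are still spreading in the first postnatal days.

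The DNA element that HIF binds has the core ACGTG or GCGTG, and the stretches below show that core in front of 6 members on which the results turn: Hif1a itself, the prolyl hydroxylase gene Egln2, the glucose transporter gene Slc2a1, the mitophagy gene Bnip3 and the enzymes Pgk1 and Ldha. Each stretch is 60 bases from the 250 bases before a start of the gene in RefSeq on GRCm38.p6, written 5′ to 3′ along the strand of the gene, with every match to the core on either strand in capitals. The palindrome CACGTG counts as a pair of overlapping matches.
Hif1a, chr12:73907705-73907764, plus strand: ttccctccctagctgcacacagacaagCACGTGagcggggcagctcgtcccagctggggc
Egln2, chr7:27166812-27166871, minus strand: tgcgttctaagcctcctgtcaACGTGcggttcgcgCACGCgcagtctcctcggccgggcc
Slc2a1, chr4:119108669-119108728, plus strand: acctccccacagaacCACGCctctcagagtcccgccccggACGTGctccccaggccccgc
Bnip3, chr7:138909583-138909642, minus strand: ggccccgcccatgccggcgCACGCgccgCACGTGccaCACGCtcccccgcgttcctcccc
Pgk1, chrX:106186932-106186991, plus strand: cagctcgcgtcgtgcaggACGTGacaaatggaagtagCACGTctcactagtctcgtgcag
Ldha, chr7:46845735-46845794, plus strand: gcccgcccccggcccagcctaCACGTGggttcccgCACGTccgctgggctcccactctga

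The RefSeq table held a start for 33 members. The end of the window, past that start, matched a GENCODE transcript of the gene for 30 of them, and not for Hif1a, Ldha and Pgam1. Over the 250 bases before the first listed start, 23 of the 33 (69.7%) held at least 1 core match, and 10431 of all 27025 genes (38.6%) did. The members' windows were also richer in CG pairs, with a median of 14 against 6 over all genes, and every core holds a CG pair. Bnip3 and Ldha had the most matches, 5 each. Vegfa, Tpi1, Gpi1, Pkm, Aldoa, Hk1, Eno2, Vhl, Hif1an and Arnt2 had none in this window. A match is a run of letters and does not show binding, and many of these genes were listed because they are known HIF targets.

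Reads counted over genes ranged from 8609845 to 34718693 per library, and from 24830192 to 55493192 per animal after libraries of the same animal were summed. Tbr1 itself was still counted, at 120 ± 23.4 CPM in Tbr1 KO animals and 170 ± 16.5 CPM in WT animals (SD, n = 4 each), and since the deleted part is not named, this level does not check the labels. Here CPM are counts scaled to a common library size with TMM factors. All 10 pan-RGC markers were counted in both genotypes, with summed levels of 12251 to 13710 CPM in Tbr1 KO animals and 10935 to 13099 CPM in WT animals. None of the 10 was called. At an unadjusted p under 0.05 by edgeR 2 were higher and 4 lower, where 3.4% of all tested genes were higher and 3.7% lower. For 2 of the 10, Pou4f2 and Thy1, every Tbr1 KO animal lay below every WT animal, as for 2.48% of all tested genes. Jam2, the gene after which J-RGCs are named, was at 107 ± 21.5 CPM in Tbr1 KO animals and 528 ± 85.6 CPM in WT animals (SD, n = 4 each), with an edgeR adjusted p of 6.41e-05 (quasi-likelihood, Benjamini-Hochberg). Markers of other retinal cells were present as well. The summed level of 14 photoreceptor markers was 68.1 to 1279 CPM in Tbr1 KO animals, highest in animal c at 1279 CPM, and 74.9 to 390 CPM in WT animals. All 13 photoreceptor markers that were tested had a log2 fold change above 0, with a median of 1.86, and 0 were called. The 10 Müller glia markers summed to 464 to 717 CPM in Tbr1 KO animals and 323 to 423 CPM in WT animals. This gap came from Clu and Dkk3, since the other 8 summed to 123 to 368 CPM in Tbr1 KO animals and 109 to 194 CPM in WT animals. Clu and Dkk3 were called higher, with edgeR adjusted p of 0.0465 and 0.0495, where 0.086% of all tested genes were called higher. All 9 tested Müller glia markers had a log2 fold change above 0, with a median of 0.76. The 5 horizontal cell markers summed to 93.8 to 130 CPM in Tbr1 KO animals and 47.1 to 68.4 CPM in WT animals, nearly all of it Calb1 and Sept4. The other 3 summed to 0.602 to 8.33 CPM in Tbr1 KO animals and 0 to 4.15 CPM in WT animals, with Lhx1 at 0 in every animal. The 7 bipolar markers summed to 11.8 to 217 CPM in Tbr1 KO animals and 14.1 to 57.6 CPM in WT animals. The 7 amacrine markers summed to 30.2 to 60.3 CPM and 24.0 to 59.4 CPM. The 8 astrocyte, vascular and microglia markers summed to 9.31 to 39.3 CPM and 23.9 to 75.1 CPM, highest in WT animal a. All 6 of these that were tested had a log2 fold change below 0, with a median of -1.21, and 0 were called. In bulk samples, fewer cells of a type and less RNA per cell cannot be told apart.

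Among the HIF subunits, Hif1a and the neuronal subunit gene Arnt2 were the abundant transcripts, Arnt was lower and Epas1 had few reads. Hif1a (GRCm38 chromosome 12, 73901375 to 73947530, plus strand), which encodes the oxygen-regulated alpha subunit, was at 224, 220, 266 and 283 CPM in Tbr1 KO animals a to d, against 90.2, 139, 149 and 123 CPM in WT animals a to d. Every Tbr1 KO animal lay above every WT animal. The means were 248 ± 31.0 CPM in Tbr1 KO animals and 125 ± 25.8 CPM in WT animals (SD, n = 4 each), a log2 fold change of 0.99 ± 0.16 (SE) with a 95% interval of 0.63 to 1.34. Separate pools of the same animal gave close values, 214 and 244 CPM in Tbr1 KO animal a, 210 and 235 CPM in Tbr1 KO animal b, and 132 and 160 CPM in WT animal b.

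Hif1a was the 1 member of the 34 that passed the low-count filter to be called higher, and 0 members were called lower. Called means a p under 0.05 in the quasi-likelihood test of edgeR after Benjamini-Hochberg adjustment over all 13957 tested genes, of which 0.086% were called higher, 0.201% lower and 0.287% in either direction. Because this contrast led to the choice of Hif1a, nothing is read from that count. The call of Hif1a had an adjusted p of 0.0228 by edgeR and stood with 2 of the 8 fits that left out 1 animal, those without WT animal a (0.0235) or WT animal c (0.0435). Adjusted p by the same edgeR test was 0.0552, 0.0698, 0.100 and 0.0858 without Tbr1 KO animals a, b, c and d, and 0.0762 and 0.0969 without WT animals b and d. With the mean level of the photoreceptor markers as a covariate, the log2 fold change of Hif1a was 0.87 and its edgeR adjusted p 0.112. Clu, Dkk3, Calb1, Sept4 and the photoreceptor marker Gnat1 also lay higher in every Tbr1 KO animal than in any WT animal. The part of each of these genes in the Hif1a difference was not tested. In GENCODE M21, Hif1a, Slc2a1 and Bnip3 each overlap a predicted gene on the other strand. Other members overlap named genes there, among them Egln2 (Cyp2t4), Tpi1 (Spsb2), Pfkm (Senp1), Pfkp (Pitrm1) and Aldoa (Fam57b). Vegfa, Ldha, Ldhb and Eno2 overlap none on that strand. Since Smart-seq2 does not mark strand, reads from both genes of such a pair cannot be told apart. On its own strand Hif1a also overlaps Gm49321, and Slc2a1 overlaps Mir1957a.

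**Figure D1:**
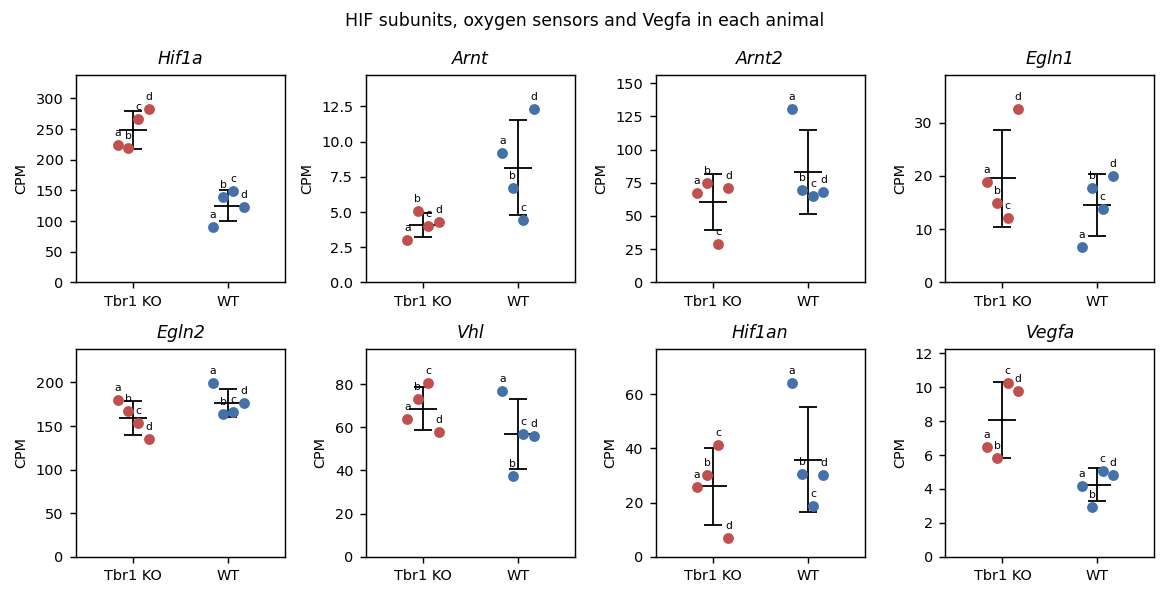
Normalised level in CPM (vertical axis, from 0) of 8 members in each animal, with Tbr1 KO animals a to d on the left and WT animals a to d on the right of each panel. Points are animals and black bars are the mean ± SD of 4 animals. In the Hif1a and Vegfa panels every Tbr1 KO animal lies above every WT animal, and in the other panels the genotypes overlap.

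Neither partner subunit was called. Arnt2, the ARNT subunit known from neurons, was at 67.5, 74.8, 29.2 and 70.9 CPM in Tbr1 KO animals a to d and at 130, 69.8, 64.7 and 67.7 CPM in WT animals a to d, so that 6 of the 8 animals lay between 64.7 and 74.8 CPM, with 1 lower and 1 higher. Its log2 fold change was -0.46 ± 0.30 (SE). Arnt, the broadly expressed partner, was at 3.01 to 5.04 CPM in Tbr1 KO animals and at 4.41 to 12.3 CPM in WT animals, with log2 fold change -0.99 ± 0.49. Epas1, the other alpha subunit of the list and best known from vessels, had 4, 1, 26 and 130 counts in Tbr1 KO animals a to d and 1, 3, 28 and 17 counts in WT animals a to d, so 1 animal holds most of its reads. Measured per kilobase of exon, Hif1a made up 99.5% ± 0.703 of the 2 alpha subunit transcripts in Tbr1 KO animals and 99.7% ± 0.270 in WT animals, and Arnt2 made up 93.2% ± 3.30 and 91.1% ± 4.08 of the 2 ARNT transcripts (SD, n = 4 each).

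The oxygen sensors and inhibitors of HIF overlapped between genotypes. Egln2, which encodes a prolyl hydroxylase of the HIF alpha subunit, was the most abundant of them, at 180, 168, 153 and 135 CPM in Tbr1 KO animals a to d and 199, 164, 167 and 176 CPM in WT animals a to d. Its log2 fold change was -0.15 ± 0.13 (SE), with a 95% interval of -0.42 to 0.13. Egln1, known as the main prolyl hydroxylase of HIF1 alpha in most cells, was at 18.8, 14.8, 12.1 and 32.5 CPM in Tbr1 KO animals a to d and at 6.61, 17.7, 13.7 and 20.001 CPM in WT animals a to d. Per kilobase of exon, Egln2 made up 91.1% ± 4.66 of the 3 hydroxylase transcripts in Tbr1 KO animals and 93.7% ± 2.70 in WT animals.

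Egln3, the hydroxylase that is itself a known HIF target, had 0 counts in the 4 Tbr1 KO animals, which allows up to 0.0180 CPM over the group (3 counts), and in WT animals it had 31 counts in animal b, 10 in animal d and 0 in the others. Vhl, the recognition subunit of the ubiquitin ligase, was at 63.7, 72.9, 80.3 and 57.6 CPM in Tbr1 KO animals a to d and at 76.8, 37.2, 57.1 and 56.0 CPM in WT animals a to d. Hif1an, an asparagine hydroxylase that blocks the activation domain of HIF, ranged from 6.80 CPM in Tbr1 KO animal d to 41.0 CPM in animal c, and from 18.8 CPM in WT animal c to 63.9 CPM in animal a. Log2 fold changes of Egln1, Vhl and Hif1an were 0.43 ± 0.40, 0.27 ± 0.21 and -0.46 ± 0.48 (SE).

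Among the 8 HIF targets outside glycolysis, Vegfa, Slc16a3 and Bnip3 had the highest positive values and none was called. Vegfa (chromosome 17, 46016993 to 46032369, minus strand), the growth factor of blood vessels, was at 6.48, 5.85, 10.2 and 9.78 CPM in Tbr1 KO animals a to d and 4.19, 2.93, 5.08 and 4.84 CPM in WT animals a to d. The animals of the 2 genotypes did not overlap, as was the case for 2.58% of all tested genes in this direction, 5.06% in either direction, and for 2 of the 34 tested members, Hif1a and Vegfa. The log2 fold change of Vegfa was 0.92 ± 0.46 (SE), with a 95% interval of -0.08 to 1.93 and an edgeR adjusted p of 0.760 (Benjamini-Hochberg). Its interval covers both 0 and the value of Hif1a.

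Bnip3 (chromosome 7, 138890836 to 138909519, minus strand), a mitochondrial protein that takes part in mitophagy, was at 175, 168, 234 and 176 CPM in Tbr1 KO animals a to d and 85.3, 154, 172 and 126 CPM in WT animals a to d. The ranges touched, since WT animal c lay above Tbr1 KO animal b. Its log2 fold change was 0.49 ± 0.20 (SE), with a 95% interval of 0.06 to 0.92, and its edgeR adjusted p was 0.615. That interval ends below the 0.99 of Hif1a but overlaps the interval of Hif1a, 0.63 to 1.34. Slc16a3, the exporter of lactate, was at 96.0, 135, 96.4 and 78.4 CPM in Tbr1 KO animals a to d and 29.7, 64.9, 103 and 71.2 CPM in WT animals a to d, with log2 fold change 0.60 ± 0.30. Bnip3l, the close relative of Bnip3, was at 257 ± 13.3 CPM in Tbr1 KO animals and 221 ± 24.9 CPM in WT animals (SD, n = 4 each).

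The other targets had small or negative log2 fold changes and were not called. Pdk1, the kinase that switches off pyruvate dehydrogenase, was at 35.8 ± 8.17 CPM in Tbr1 KO animals and 33.2 ± 12.7 CPM in WT animals. Ddit4, an inhibitor of mTORC1 signalling, was at 14.7, 21.5, 26.3 and 17.1 CPM in Tbr1 KO animals a to d and 31.4, 23.7, 24.2 and 25.6 CPM in WT animals a to d, a log2 fold change of -0.40 ± 0.25 (SE). Ankrd37 was at 7.59 ± 2.00 CPM in Tbr1 KO animals and 8.97 ± 2.70 CPM in WT animals (SD, n = 4 each). Adm, which encodes the vasodilator peptide adrenomedullin, did not pass the filter, with 13 counts over the Tbr1 KO animals and 43 over the WT animals. The median log2 fold change of the 7 tested targets was 0.21, and that of all tested genes was -0.00071.

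**Figure D2:**
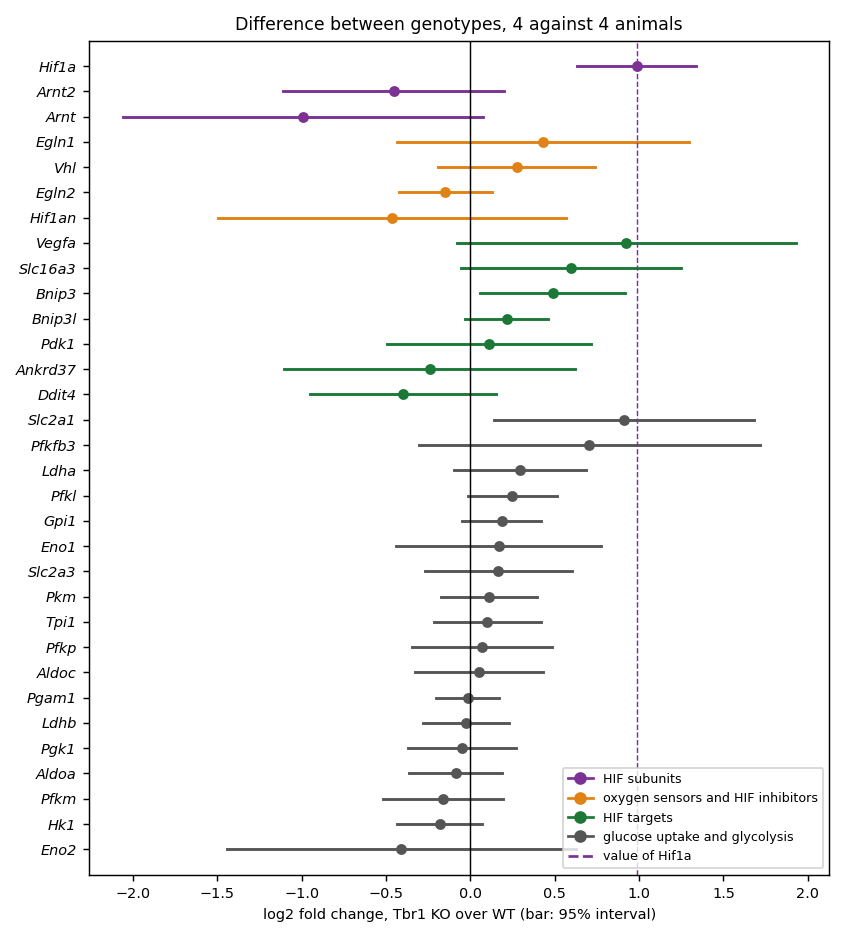
Log2 fold change of Tbr1 KO over WT (horizontal axis) for 32 members, grouped by role, with points at the estimate and bars for the 95% interval of the edgeR fit over 4 against 4 animals. Epas1 and Hk2 are left out because few reads gave them intervals several units wide, and Egln3 and Adm were not tested. The dashed line marks the 0.99 of Hif1a, whose own 95% interval is 0.63 to 1.34. Most bars of the glycolytic enzymes end to the left of the line, as do the 95% intervals of 8844 of all 13957 tested genes. No member's difference from Hif1a was tested.

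Of the glucose transporters, Slc2a1 had the larger difference. Slc2a1 (chromosome 4, 119108711 to 119137983, plus strand), the ubiquitous transporter GLUT1, was at 20.7, 21.3, 18.2 and 12.3 CPM in Tbr1 KO animals a to d and 5.32, 11.03, 14.1 and 8.23 CPM in WT animals a to d. Only Tbr1 KO animal d lay within the WT range. Its log2 fold change was 0.91 ± 0.35 (SE), with a 95% interval of 0.14 to 1.68 and an edgeR adjusted p of 0.583. Slc2a3, the neuronal transporter GLUT3, was at 143, 154, 139 and 102 CPM in Tbr1 KO animals a to d and at 123, 78.2, 158 and 121 CPM in WT animals a to d, with log2 fold change 0.17 ± 0.20. Per kilobase of exon Slc2a3 held 78.3% ± 1.34 of the 2 transporter transcripts in Tbr1 KO animals and 85.3% ± 6.06 in WT animals.

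At an unadjusted p under 0.05 by the same edgeR test, 3 of the 34 tested members were higher (Hif1a, Slc2a1 and Bnip3) and 0 lower, where 3.4% of all tested genes were higher, 3.7% lower and 7.09% either. These 3 include the gene that led to the choice of the group.

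No enzyme of glycolysis was called, and the genotypes overlapped in all of them. Ldha, the lactate dehydrogenase subunit that HIF is known to raise, was at 1420, 1731, 2254 and 1472 CPM in Tbr1 KO animals a to d and 948, 1501, 1663 and 1494 CPM in WT animals a to d. Tbr1 KO animals a and d lay within the WT range, and the log2 fold change was 0.29 ± 0.18 (SE), with a 95% interval of -0.10 to 0.69. Pgk1, phosphoglycerate kinase and a classical HIF target, was at 423, 409, 435 and 381 CPM in Tbr1 KO animals a to d and 305, 532, 455 and 415 CPM in WT animals a to d, with log2 fold change -0.05 ± 0.15 and an interval of -0.37 to 0.27.

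Aldoa, the main aldolase, was at 1452, 1614, 1601 and 1194 CPM in Tbr1 KO animals a to d and 1305, 1441, 1793 and 1690 CPM in WT animals a to d, a log2 fold change of -0.09 ± 0.13 (SE). Pgam1, phosphoglycerate mutase, was the most even member, at 931 ± 38.1 CPM in Tbr1 KO animals and 942 ± 48.0 CPM in WT animals (SD, n = 4 each). Its 95% interval was -0.21 to 0.17, which bounds any difference in its transcript more tightly than for any other tested member. Pkm, pyruvate kinase, was at 1469 ± 216 CPM in Tbr1 KO animals and 1361 ± 208 CPM in WT animals. Gpi1, glucose phosphate isomerase, was at 693 ± 15.98 CPM in Tbr1 KO animals and 610 ± 87.1 CPM in WT animals.

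**Figure D3:**
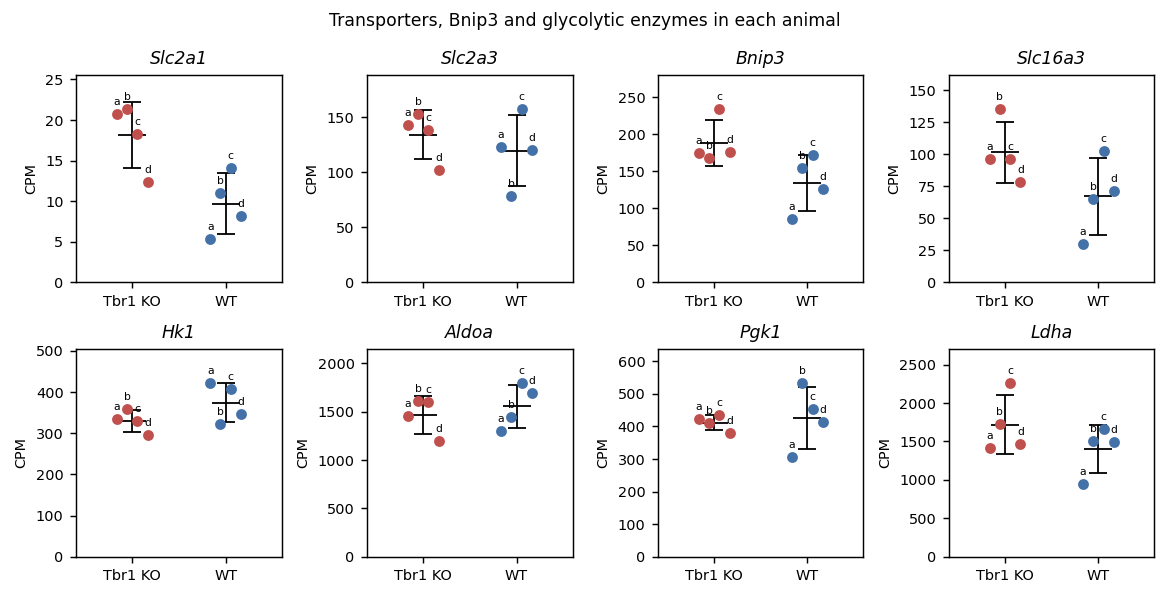
Normalised level in CPM (vertical axis, from 0) of glucose and lactate transporters, Bnip3 and 4 glycolytic enzymes in each animal, with Tbr1 KO animals on the left and WT animals on the right of each panel. Points are animals and bars are the mean ± SD of 4. The genotypes overlap in all 8 panels, least for Slc2a1 and Bnip3, and WT animal a is the lowest point in 5 of them.

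The other enzymes gave log2 fold changes on both sides of 0. Hk1, the brain-type hexokinase, was at 330 ± 26.2 CPM in Tbr1 KO animals and 374 ± 47.9 CPM in WT animals (SD, n = 4 each). Pfkl, the liver-type phosphofructokinase, was at 312, 278, 299 and 240 CPM in Tbr1 KO animals a to d and 232, 215, 275 and 230 CPM in WT animals a to d, a log2 fold change of 0.25 ± 0.12 (SE). Pfkm and Pfkp, its muscle and platelet types, had log2 fold changes of -0.16 ± 0.16 and 0.07 ± 0.19. Pfkfb3, which makes the activator of phosphofructokinase, was at 10.8, 22.0, 13.8 and 21.3 CPM in Tbr1 KO animals a to d and 3.63, 12.3, 18.6 and 7.06 CPM in WT animals a to d, with log2 fold change 0.71 ± 0.46 and an interval of -0.30 to 1.71.

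Tpi1, triose phosphate isomerase, was at 658 ± 62.0 CPM in Tbr1 KO animals and 614 ± 127 CPM in WT animals (SD, n = 4 each). Aldoc, the aldolase best known from the brain, was at 134 ± 22.4 CPM in Tbr1 KO animals and 129 ± 26.6 CPM in WT animals. Ldhb, the other lactate dehydrogenase subunit, was at 417 ± 18.9 CPM in Tbr1 KO animals and 426 ± 62.0 CPM in WT animals. Over the 19 glucose uptake and glycolysis members the median log2 fold change was 0.07, against -0.00071 over all tested genes, with 11 values above 0 and 8 below.

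Set in pathway order, the glycolytic transcripts spanned a wide range of levels per kilobase of exon. Among the members, the leading isozyme was the same in both genotypes except at phosphofructokinase, where Pfkl and Pfkm were level in WT animals. Eno1b, a copy of Eno1 that is not a member, was left out of this ranking of the enolases. Hk1 was at 38.6 ± 3.08 CPM per kilobase in Tbr1 KO animals and 43.9 ± 5.61 in WT animals (SD, n = 4 each), while the inducible hexokinase Hk2 had 47, 92, 16 and 0 counts in Tbr1 KO animals a to d and 0, 97, 36 and 0 counts in WT animals a to d. Aldoa reached 503 ± 67.0 CPM per kilobase in Tbr1 KO animals and 535 ± 76.8 in WT animals, and Ldha 519 ± 115 and 423 ± 94.3. Of the 2 lactate dehydrogenase transcripts, Ldha made up 65.6% ± 4.90 in Tbr1 KO animals and 60.6% ± 2.90 in WT animals, a difference of about the spread between animals. The 3 phosphofructokinase transcripts were close to even, with Pfkl at 40.9% ± 2.18 in Tbr1 KO animals and 36.02% ± 3.17 in WT animals, and Pfkm at 31.2% ± 5.12 and 36.1% ± 6.54.

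**Figure D4:**
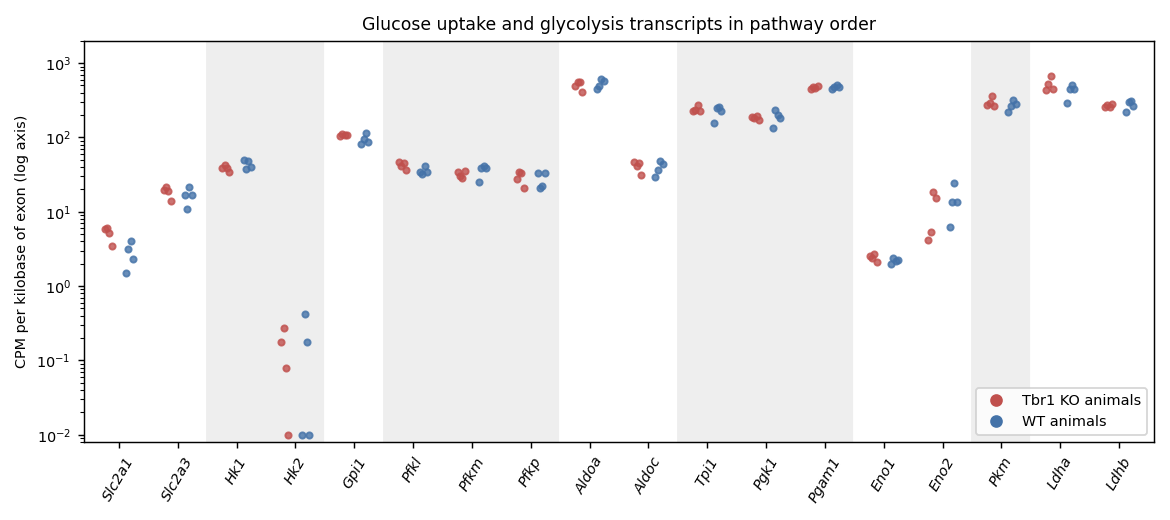
Level of the glucose uptake and glycolysis members in pathway order (horizontal axis), in CPM per kilobase of merged exon on a log axis, with Tbr1 KO animals to the left and WT animals to the right of each tick and 1 point per animal. Animals with 0 counts of Hk2 are drawn at 0.01. Aldoa, Pgam1 and Ldha are the highest, and Eno1 lies below Eno2 and far below Pgam1 and Pkm, which act next to it in the pathway.

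The enolase members, Eno1 and Eno2, stood out for their low level. Eno1, the ubiquitous enolase, was at 13.2 ± 1.40 CPM in Tbr1 KO animals and 11.8 ± 0.885 CPM in WT animals (SD, n = 4 each), or 2.46 ± 0.260 and 2.19 ± 0.164 CPM per kilobase. Eno2, the neuronal enolase, was at 19.6, 25.2, 86.6 and 73.0 CPM in Tbr1 KO animals a to d and 29.3, 62.8, 115 and 64.1 CPM in WT animals a to d, with wide spread in both genotypes. Eno1b, which is not a member, was at 69.5 to 77.3 CPM in WT animals and at 0.815 to 199 CPM in Tbr1 KO animals. Of the 50-base runs in coding transcripts of Eno1, 48.4% are also in transcripts of Eno1b, its near-identical copy. Reads that fit both places are not unique, and 36.1% to 39.9% of the reads listed in the files named no gene. The level of Eno1 is therefore uncertain. The same holds to a degree for Pgk1, where 68.0% of such runs occur in another gene, Bnip3 (46.3%), Pgam1 (41.5%), Bnip3l (24.4%), Ldhb (20.99%), Gpi1 (19.0%) and Pkm (18.4%). Hif1a and Slc2a1 shared none with an annotated gene elsewhere, and Vegfa shared 0.220%. Genes that overlap the member in position were left out of these shares.

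Genes of the same pathways outside the 36 were taken from lists of known members. Of 20 tested regulators and partners of HIF, 0 were called in either direction, and Ahr, a bHLH-PAS receptor that shares the partner Arnt, had the smallest p. Ahr was at 3.43, 6.51, 5.10 and 3.86 CPM in Tbr1 KO animals a to d and 12.7, 9.74, 12.6 and 17.5 CPM in WT animals a to d, without overlap, as for 2.48% of all tested genes in that direction. Its log2 fold change was -1.47 ± 0.38 (SE) and its edgeR adjusted p 0.259. Of 34 tested further HIF targets, 0 were called, with 17 log2 fold changes above 0 and 17 below. Mxi1, a MAX-binding antagonist of MYC, was at 25.0 ± 11.6 CPM in Tbr1 KO animals and 12.3 ± 2.36 CPM in WT animals (SD, n = 4 each), and Rora, a nuclear receptor, at 294 ± 41.8 CPM and 439 ± 50.9 CPM. Their edgeR adjusted p was 0.486 and 0.137. Of 32 tested further genes of glycolysis, lactate and pyruvate, 0 were called. Slc16a8, Slc2a8 and Pfkfb4 had the smallest p, with log2 fold changes of 2.06 ± 1.21, -0.54 ± 0.33 and -0.56 ± 0.41 (SE). Gapdh, glyceraldehyde phosphate dehydrogenase, had a log2 fold change of 0.01 ± 0.18. At an unadjusted p under 0.05 the same test gave 0 higher and 2 lower in the first of these lists, 1 higher and 1 lower in the second, and 0 in the third. Over all tested genes 3.4% were higher and 3.7% lower at that level, and 0.287% were called. At that share, lists of these sizes would hold few or no called genes.

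Whether members followed Hif1a from animal to animal was examined within the genotypes, a measure that the difference between genotypes did not use. For each of 33 members, log2 CPM was expressed as the deviation from the mean of the animal's genotype and set against the same deviation of Hif1a over the 8 animals. Pearson's r was positive for 23 members and negative for 10, with a median of 0.33, and 0 passed an adjusted p of 0.05 in exact two-sided permutation tests within genotype (Benjamini-Hochberg over the 33). At an unadjusted p under 0.05, 8 members (24.2%) passed by Pearson's r and 6 (18.2%) by Spearman's rho, and of all 13956 tested genes other than Hif1a 10.2% and 8.84% did. The median r over all those genes was 0.02, and 51.1% of them had a positive r. Without WT animal a, the lowest in Hif1a, 15 members had a positive r and 18 a negative one, with a median of -0.15. When any of the other 7 animals was left out, and deviations were taken anew, 22 to 24 members were positive and the median was 0.30 to 0.69. The smallest p that these permutations can give is 0.00174, which is too large for 1 member alone to pass the adjustment over 33.

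The highest r was that of Bnip3, at 0.89 (exact permutation p = 0.0191, adjusted p = 0.158), with Spearman's rho of 0.83 (exact permutation p = 0.0312, adjusted p = 0.239). Without WT animals a and c, the 2 animals farthest from the median Hif1a deviation, r of Bnip3 was 0.61. Ldhb had r = 0.88 (exact permutation p = 0.0174, adjusted p = 0.158) and rho = 0.81 (exact permutation p = 0.0365, adjusted p = 0.239), and r was 0.55 without those 2 animals. Tpi1 had r = 0.88 (exact permutation p = 0.0312, adjusted p = 0.185) and rho = 0.71 (exact permutation p = 0.0747, adjusted p = 0.269), with r = 0.55 without them, so all 3 relations rest in part on those animals. Eno2 had r = 0.86 (exact permutation p = 0.0139, adjusted p = 0.158) and rho = 0.74 (exact permutation p = 0.0556, adjusted p = 0.262), and r was 0.84 without those 2 animals.

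Egln2 ran the other way. Its r was -0.86 (exact permutation p = 0.00694, adjusted p = 0.158), its rho -0.86 (exact permutation p = 0.0122, adjusted p = 0.201), and r was -0.92 without WT animals a and c. Tbr1 KO animal d had the highest Hif1a and the lowest Egln2 of its genotype, and WT animal a the lowest Hif1a and the highest Egln2. Slc2a1 did not keep 1 direction: WT animals followed the order of Hif1a, with animal a lowest and animal c highest, whereas Tbr1 KO animal d, the highest in Hif1a, was the lowest in Slc2a1. Its r was -0.88 within the 4 Tbr1 KO animals and 0.98 within the 4 WT animals. Other members had opposite signs too, such as Slc16a3 (-0.79 and 0.95), Pdk1 (-0.75 and 0.77) and Pgk1 (-0.39 and 0.92). Others kept 1 sign, such as Bnip3 (0.49 and 0.998) and Egln2 (-0.93 and -0.98). Over all 8 animals Slc2a1 had r = 0.51 (exact permutation p = 0.328, adjusted p = 0.516), rho = 0.43 (exact permutation p = 0.406, adjusted p = 0.583) and r = -0.53 without WT animals a and c. Ldha had r = 0.72 (exact permutation p = 0.0990, adjusted p = 0.251), rho = 0.62 (exact permutation p = 0.153, adjusted p = 0.388) and r = 0.26 without them.

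**Figure D5:**
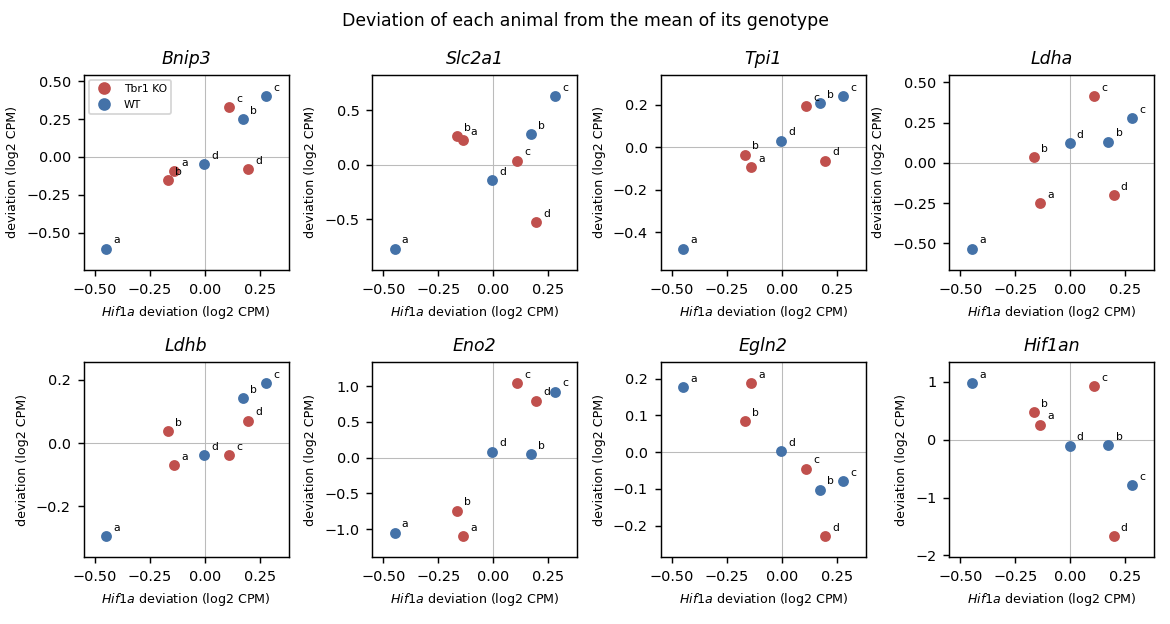
Deviation of each animal from the mean of its genotype, in log2 CPM, for Hif1a (horizontal axis) and 8 members (vertical axis of each panel), with letters naming the animals. Red points are Tbr1 KO animals and blue points WT animals. WT animal a lies at the far left of every panel, and in the Egln2 panel the points run downwards from left to right.

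The positive median of r thus rested on WT animal a, while r of Egln2 was -0.86 and r of Eno2 0.88 without it. For Bnip3, Ldhb and Tpi1, r without it was 0.67, 0.62 and 0.57. WT animal a was 1 library, with the fewest counts of the 8 animals, 24830192, and the fewest genes detected of the 11 libraries, 13897. The part of this in its levels was not tested. WT animal a was the lowest of the 4 WT animals for 15 of the 19 glucose uptake and glycolysis members (78.9%), and for 36.1% of all tested genes. WT animal c was the highest WT animal for 14 of the 19 (73.7%), and for 24.1% of all tested genes. Among Tbr1 KO animals, animal d was the lowest for 11 of the 19 (57.9%), and for 29.7% of all tested genes, although it had the highest Hif1a. The members share libraries, so these counts describe 8 animals and not 19 separate measurements.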

How the data were processed

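RNA sequencing counts were analysed for 11 libraries of 100 sorted J-RGCs each, 6 from 4 Tbr1 KO animals and 5 from 4 WT animals. The authors deposited unnormalised read counts for each gene symbol in each library. The tools named are HTSeq 0.6.1, TopHat2 2.0.10 and Trimmomatic 0.32, and the build is mm10 (GRCm38), per the submitters' processing notes. Which annotation and strand option they used is not given. Reads that named no gene (36.1% to 39.9%) were left out. With no molecular identifiers, PCR duplicates remain in the counts. The 95% intervals include the spread between animals, and the floors cover counting error only.

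Counts were summed per animal, filtered with filterByExpr (13957 genes left) and scaled with TMM. Genotypes were compared with edgeR 4.0.16 (R 4.3.3) by its quasi-likelihood test with robust moderation, and p-values were adjusted over all tested genes by the Benjamini-Hochberg method, with a threshold of 0.05. The SE is the log2 fold change divided by the square root of F, and the 95% interval uses the moderated degrees of freedom. Log2 CPM in correlations used a prior count of 0.5. Exon lengths, positions and 50-base runs came from GENCODE M21 (36 of 36 members matched), and promoter sequences from RefSeq on GRCm38.p6. Plots were drawn with matplotlib 3.10.9.

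The members and gene lists were chosen with earlier results of these data known. The naming rule gives values per animal for HIF subunits, oxygen sensors, Vegfa, members with an unadjusted p under 0.05 and those with the largest changes in a role. Other members given per animal, and Egln2, Eno2 and the stretches of sequence shown, were picked after their values were seen. In the added lists the called genes, or else genes with the smallest p, are named, and Gapdh was named outside that rule. The fits and the correlation were tested on simulated data. Alternatives were libraries as samples, DESeq2 1.42.0, other scalings and filters, a block for the replicate number, a photoreceptor covariate, a correlation over libraries or with another prior count, and leaving out each animal. No sample was left out.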

Additional observations from a re-analysis of the deposited data

Results flagged for a closer look

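In 4 of 68 groups of 4 animals (34 members in each genotype), 1 animal stood apart from the other 3 by more than Dixon's critical ratio at the 95% level, where chance gives about 1 group in 20. Arnt2 was at 29.2 CPM in Tbr1 KO animal c, below the other Tbr1 KO animals at 67.5 to 74.8 CPM, and at 130 CPM in WT animal a, above the other WT animals at 64.7 to 69.8 CPM. Bnip3 was at 234 CPM in Tbr1 KO animal c, above the other Tbr1 KO animals at 168 to 176 CPM. Pfkm was at 84.0 CPM in WT animal a, below the other WT animals at 128 to 136 CPM. Tbr1 KO animal c also had the highest sum of photoreceptor markers, 1279 CPM, and the part of that in its Arnt2 and Bnip3 levels was not tested.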

How the results depend on the processing

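The log2 fold change of Hif1a was above 0 in all 18 settings, including the main one, and its edgeR call was lost in 8 of them. It was 0.86 to 1.08 when 1 animal was left out, 0.87 with the photoreceptor markers as a covariate and 0.83 without the 2 Tbr1 KO animals with the highest photoreceptor marker sums, an alternative chosen after seeing the data, and the number of members called higher was then 0 to 1, 0 and 0. Without those 2 animals the edgeR adjusted p of Hif1a was 0.407, with fewer animals in the fit. DESeq2 gave Hif1a 0.99 with an adjusted p of 1.24e-06, and it called 156 genes where edgeR called 40. With each library as a sample 84 genes were called, and 17 to 44 when 1 animal was left out. The replicate numbers did not pair the libraries: deviations of libraries with the same number correlated at -0.03 to 0.13. A fit with the replicate number as a block, on libraries 1 to 5 of each genotype, gave Hif1a a log2 fold change of 0.86 and called 1 member and 42 genes. No member but Hif1a was called in any setting, and the median of the glycolysis members ranged from -0.03 to 0.18 and that of the HIF targets from 0.18 to 0.41. The number of members correlated with Hif1a at an adjusted p under 0.05 was 0 in all 13 settings. With animals as samples, 1 member alone could not pass that adjustment, and leaving out 1 animal leaves fewer permutations. These counts of 0 therefore show little. Of the 34 tested members, 14 had a log2 fold change above 0 in every setting that gave one (Hif1a, Vegfa, Slc2a1 and Bnip3 among them), 8 below 0 (Arnt, Arnt2, Egln2, Hif1an, Ddit4, Hk1, Pfkm and Eno2) and 12 both signs. Low counts limit Epas1 and Hk2, whose differences were not detectable at this depth, and Egln3 and Adm were not tested.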

Other observations

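Eno1b, the near-identical copy of Eno1, had values that fell into separate levels across the animals and was looked at because its sequence is shared with Eno1. It was at 1.07, 0.897, 199 and 0.815 CPM in Tbr1 KO animals a to d and at 69.5, 77.3, 75.6 and 76.4 CPM in WT animals a to d. The 4 WT animals lay within a narrow range, 3 Tbr1 KO animals were near 0 with 26 to 50 counts each, and Tbr1 KO animal c had 6704 counts. Its edgeR adjusted p over all genes was 0.990, and animal c lay far above the WT animals. Eno1 itself varied little over the same 8 animals, between 10.6 and 14.7 CPM.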
